A study of Bos taurus with 11 samples.

Results

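The bovine miRNAs *bta-miR-191*, *bta-miR-425-5p* and *bta-miR-425-3p*, written below without their prefix, were examined. *MiR-191* is among the internal control miRNAs of the RT-qPCR that accompanied the sequencing. The 3 miRNAs were taken from the deposited count table by their names, and all 3 were found among the 796 miRNAs listed. Small RNA had been sequenced from mammary biopsies of lactating cows, 5 Holstein and 6 Montbéliarde, with 1 library per cow. The cows were in mid-lactation and received the same diet according to the study's methods, and no treatment was compared. They were not all of the same lactation number or stage, and whether the breeds were matched on these is not given in the sources used here. Both are dairy breeds, and the methods give a further Holstein cow as left out because of mastitis. The libraries are named by the tags of the sample records, CNLX1 to CNLX9 for Holstein and CNLX13 to CNLX23 for Montbéliarde. The tags do not mix the breeds, so that an order of preparation, if they follow one, and breed cannot be told apart. The counts summed over all miRNAs came to between 6087865 and 16808976 per library. Some miRNAs have the same counts, such as *let-7b* and *miR-3596*, so that a read may enter these sums more than once. According to the study, the Montbéliarde libraries on average kept a smaller share of their raw reads after cleaning than those of Holstein. This difference between the libraries and breed cannot be told apart. The listed epithelial markers (the miR-200 family and *miR-205*), 6 of 6, were read in the libraries, with summed normalized read counts of 367535 to 466746 in Holstein and 180093 to 469496 in Montbéliarde. A biopsy holds several cell types, and fewer cells of a type and less RNA per cell cannot be told apart in it.

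MiRNAs are cut from a hairpin whose arms, named 5p and 3p, can each give a mature miRNA, and usually one arm is loaded onto Argonaute much more often than the other. The hairpins of *miR-191* and *miR-425* lie next to each other in mammals and are known to be made from one primary transcript, in human within an intron of *DALRD3*. *MiR-191* is abundant in many tissues, is known to respond to oestrogen in breast cancer cells, and is widely used as a reference in RT-qPCR of miRNAs. A reference of this kind is useful where it does not vary between samples or with the condition studied. In the RefSeq gene table of the assembly ARS-UCD2.0, which is later than the one used for the counts, *MIR191* and *MIR425* are on chromosome 22 between *NDUFAF3* and *DALRD3*, and 0 protein-coding genes span either of them there. The same table lists *MIR191B* within the span of *MIR191*. The deposited table gives *miR-191b* its own counts, which are set beside those of *miR-191* here. The strand of these genes is not in that table, and whether *miR-191* and *miR-191b* share reads was not tested.

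*MiR-191* was the most abundant of the 3 by far. Levels are given as normalized read counts, which are raw counts divided by 1 size factor per library. With a mean of 112080, *miR-191* had rank 17 of the 796 miRNAs. The guide arm *miR-425-5p* followed at rank 129 with a mean of 719, and the passenger arm *miR-425-3p* at rank 211 with a mean of 107. *MiR-191b* had rank 216 and a mean of 94.0. These are reads per mature miRNA, and a ligation step that favours some sequences enters into levels compared between miRNAs.

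In the Holstein cows, the normalized read count of *miR-191* was 124182 in library CNLX1, 135289 in CNLX3, 145812 in CNLX5, 115262 in CNLX7 and 121915 in CNLX9. In the Montbéliarde cows its median was 95090, between 62171 in CNLX19 and 145075 in CNLX15. In 4 of the Montbéliarde libraries *miR-191* was thus below every Holstein library, while CNLX15 was close to the highest Holstein library and CNLX13 lay within the Holstein range. The mean was 128492 ± 12073 (SD, n = 5) for Holstein, against 98402 ± 30755 (SD, n = 6) for Montbéliarde.

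Of the counts summed over all miRNAs, *miR-191* took 1.31% ± 0.0739 (SD, n = 5) for Holstein, against 0.984% ± 0.218 (SD, n = 6) for Montbéliarde. Where reads enter the sum more than once, this share is below the share of reads. The share was lowest in CNLX19, at 0.707% with a Wilson 95% confidence interval of 0.702 to 0.713%, and highest in CNLX5, at 1.44% (1.43 to 1.44%). Such intervals take in counting error alone, because reads copied by PCR carry no molecular tag, and they were narrow beside the differences between cows.

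**Figure D1:**
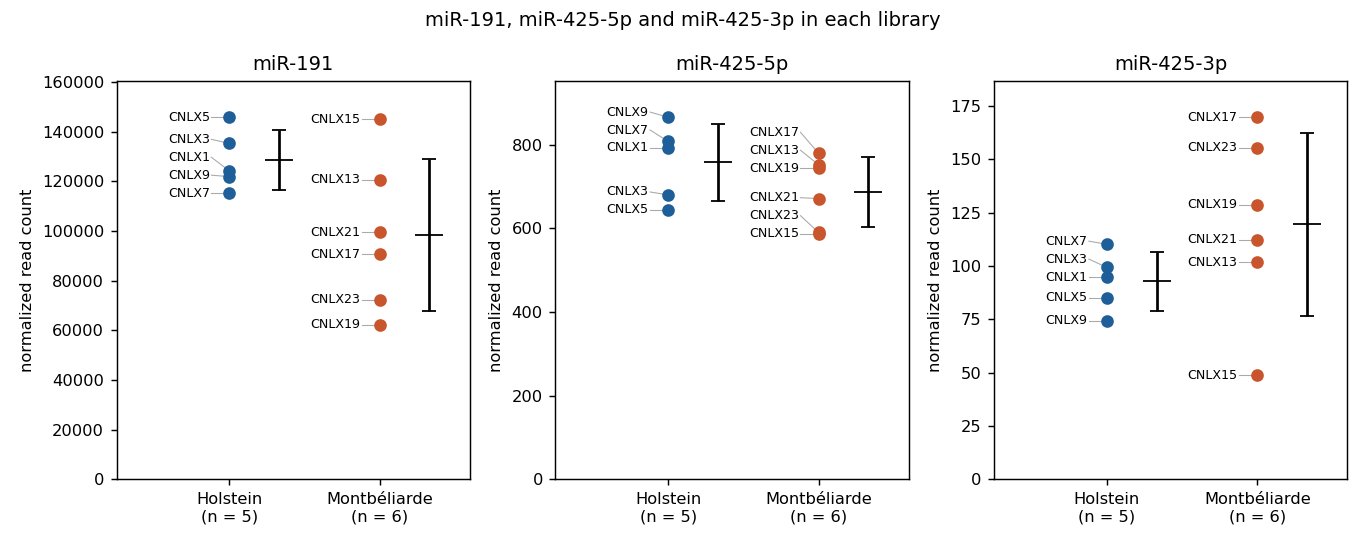
Normalized read counts (vertical axes, from 0) of *miR-191*, *miR-425-5p* and *miR-425-3p* in each library, by breed. Each point is 1 library with its tag, and the bars beside the points are the mean ± SD. The Montbéliarde libraries reach from 62171 to 145075 for *miR-191*, against 115262 to 145812 in Holstein, and the breeds overlap in each panel.

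The log2FC of *miR-191*, Montbéliarde over Holstein, was -0.40 (standard error 0.19), with a 95% interval from -0.80 to 0.01. It was not past the threshold (adjusted p = 0.348, unadjusted p = 0.0539, quasi-likelihood test of edgeR, Benjamini-Hochberg adjustment across every miRNA tested). The interval held no change and also a level in Montbéliarde clearly below that in Holstein, so that these libraries do not show the breeds to be alike in *miR-191*. In the same comparison, 2 of the 550 miRNAs tested passed the threshold, or 0.364%. None of the 3 miRNAs examined was among them, nor among the 78 (14.2%) with an unadjusted p of at most 0.05 in that test, and the number with DESeq2 was 20 of 462 (4.33%), again with none of the 3.

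For *miR-425-5p*, the normalized read counts were 792 in CNLX1, 680 in CNLX3, 644 in CNLX5, 807 in CNLX7 and 865 in CNLX9 in Holstein. In Montbéliarde they had a median of 707 and lay between 587 in CNLX15 and 779 in CNLX17. The breeds overlapped over most of their ranges. Means were 758 ± 92.5 (SD, n = 5) for Holstein, against 687 ± 84.3 (SD, n = 6) for Montbéliarde. The log2FC was -0.15 (standard error 0.16, 95% interval -0.49 to 0.20, adjusted p = 0.726 from the same edgeR test).

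The other arm, *miR-425-3p*, was read between 39 and 198 times per library, so that counting error weighs more here. Its normalized read counts in Holstein were 94.8 in CNLX1, 99.3 in CNLX3, 85.1 in CNLX5, 110 in CNLX7 and 74.3 in CNLX9. In Montbéliarde the median was 121, with the lowest count in CNLX15, at 48.7, and the highest in CNLX17, at 170. In Montbéliarde, 4 libraries were above every Holstein library and CNLX15 was below all of them. The log2FC was 0.36 (standard error 0.27, 95% interval -0.23 to 0.94, adjusted p = 0.562 from the same edgeR test). The estimate for *miR-191b* was 0.05 (95% interval -0.37 to 0.46, adjusted p = 0.934 from that test). The breeds overlapped for all 3 miRNAs examined. Of all miRNAs tested, 11 (2%) had breeds that did not overlap.

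The levels of *miR-191* were closer together in the Holstein than in the Montbéliarde cows. On the log2 scale its SD was 0.13 in Holstein, where it ranked 43 of 214 miRNAs from the least variable on, and 0.45 in Montbéliarde, where it ranked 116. The ranking was made over the miRNAs with a mean normalized read count of at least 100, and their median SD was 0.21 in Holstein and 0.44 in Montbéliarde. The median miRNA thus also had the larger SD in Montbéliarde. By contrast, *miR-425-5p* had an SD of 0.18 in each breed, with rank 82 in Holstein and 16 in Montbéliarde. For *miR-425-3p* the SD was 0.22 in Holstein and 0.65 in Montbéliarde. The mean absolute deviation of log2 *miR-191* from the breed median was 0.10 in Holstein and 0.35 in Montbéliarde, a difference of 0.25 that did not pass (exact permutation test, two-sided, p = 0.0628, adjusted p = 0.188 over the 3 miRNAs). The difference was 0.28 for *miR-425-3p* (p = 0.212) and 0.02 for *miR-425-5p* (p = 0.799) in the same exact test.

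How stable *miR-191* was as a reference was first described by its spread over the 11 libraries without regard to breed. The SD of its log2 normalized read count was 0.40, the coefficient of variation was 24.9% and the highest library was 2.35 times the lowest. It ranked 117 of 214 from the least variable miRNA on, with 116 miRNAs varying less and 97 varying more, and the median SD was 0.39. Among the 54 miRNAs with a mean of at least 10000, 32 varied less and 21 more than *miR-191*. *MiR-191* thus lay near the middle of all ranked miRNAs, and above the median SD, 0.35, of those with a mean of at least 10000. The partner from the same locus, *miR-425-5p*, ranked 18 with an SD of 0.19 and a coefficient of variation of 12.7%, its highest library being 1.47 times the lowest. *MiR-425-3p* ranked 158 with an SD of 0.50.

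The least variable of the ranked miRNAs were *miR-194* with an SD of 0.12, *let-7b* and *miR-3596*, which have the same counts, with 0.12, and *miR-194b* and *miR-2284x*, each with 0.13. The miRNAs nearest to *miR-191* in level were *let-7f*, *miR-3600* and *miR-22-3p* above it and *miR-127*, *miR-30d* and *miR-26b* below. Their SDs were 0.23, 0.29 and 0.29 above, and 0.55, 0.26 and 0.23 below, so that of these 6 only *miR-127* varied more than *miR-191*. *MiR-3600* and *miR-22-3p* have nearly the same counts and are not separate values.

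**Figure D2:**
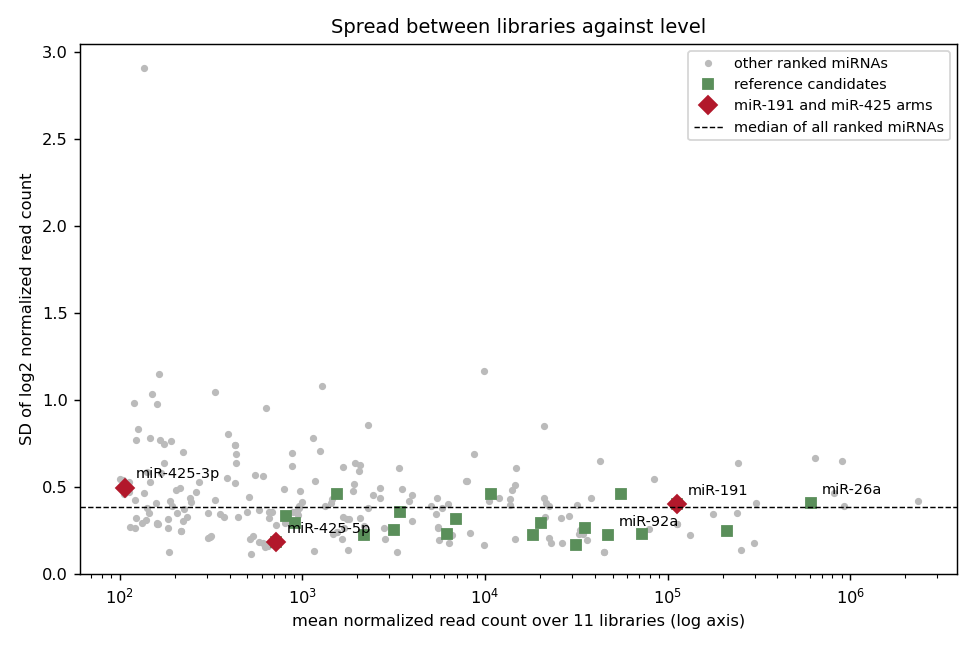
SD of the log2 normalized read count over the 11 libraries (vertical axis) against the mean normalized read count (horizontal log axis) for the 214 miRNAs whose mean reached 100. Grey points are miRNAs, green squares the reference candidates and red diamonds *miR-191* and the *miR-425* arms. *MiR-191* lies at 0.40, just above the dashed median of 0.39, while *miR-425-5p* is at 0.19.

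*MiR-191* was then compared with 20 miRNAs that are often used as references for small RNA, itself and *miR-425-5p* included, and all 20 were measured. By SD, *miR-191* was number 16 of the 20, with 15 candidates varying less and 4 varying more, and the median of the list was 0.28. Those varying more were *miR-26a* with an SD of 0.41, *miR-16a* with 0.46, *miR-423-5p* with 0.46 and *miR-186* with 0.46. At the other end were *miR-151-5p* with 0.17 and *miR-425-5p* with 0.19. Of the 20 candidates, 2 passed the threshold of the breed comparison, *miR-16a* and *miR-186*, both higher in Holstein, 0 were higher in Montbéliarde and 18 did not pass. These 2 were also the only ones to pass among all 550 miRNAs tested (0.364%). The list was drawn up with earlier results of these data known. It holds *miR-16a*, *miR-186* and *miR-25*, which the paper reports as different between the breeds. The median log2FC of the list was -0.14, against 0.03 over all miRNAs tested. *MiR-191* had the fourth lowest log2FC of the list, after *miR-16a* (-0.79), *miR-186* (-0.77) and *miR-16b* (-0.43).

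**Figure D3:**
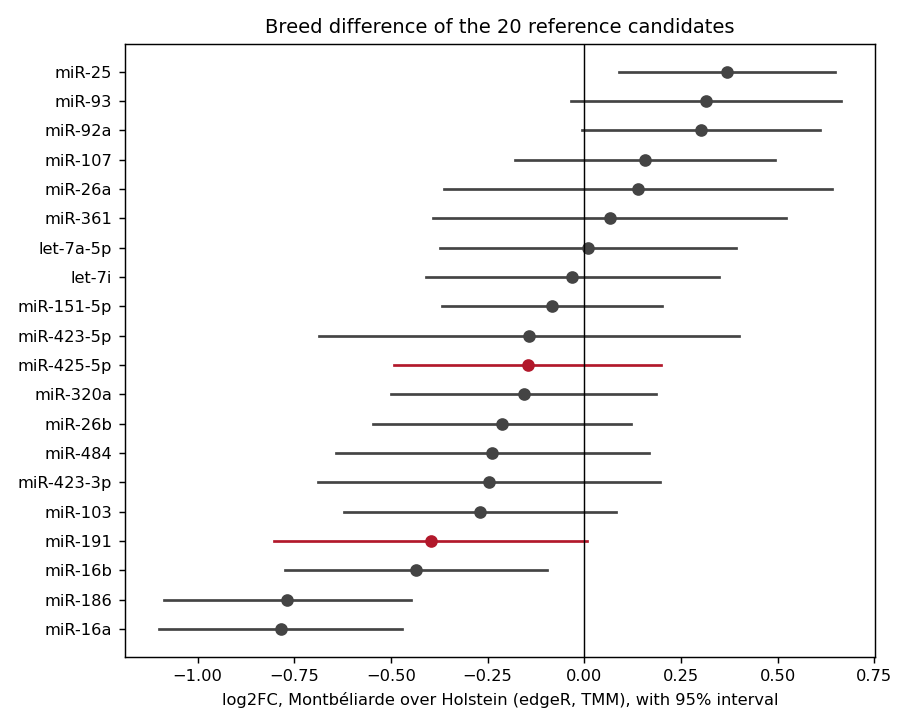
Log2FC of the 20 reference candidates (horizontal axis, Montbéliarde over Holstein, from edgeR after TMM scaling), with lines for the 95% interval of each and *miR-191* and *miR-425-5p* in red. The interval of *miR-191* runs from -0.80 to 0.01 and that of *miR-425-5p* from -0.49 to 0.20.

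The geNorm stability value M is the mean SD of the log2 ratios of a candidate to each of the others, and a low value marks a stable candidate. In its RT-qPCR methods, the study reports that *miR-26a*, *miR-92a* and *miR-191* were suitable controls by geNorm. On these read counts, among the controls of the RT-qPCR, M was 0.48 for *miR-191*, 0.46 for *miR-26a* and 0.55 for *miR-92a*. Among the 20 candidates, *miR-425-5p* had the lowest M, 0.31, followed by *miR-151-5p* with 0.32 and *miR-26b* with 0.35. Because M is made of ratios, candidates that vary together lower each other's M, and the list holds members of the same families. *MiR-425-5p* had a Pearson's r of 0.96 with *miR-423-3p* of the list, the highest of 213 values. *MiR-191* was number 16 with 0.46, *miR-92a* number 11 with 0.40 and *miR-26a* number 19 with 0.52. These values describe sequencing reads, and RT-qPCR values were not analysed here.

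Set against the other controls, *miR-191* had a lower mean in Montbéliarde, by a ratio that was added after the data were seen and whose call depended on the measure. *MiR-92a* belongs to the miR-17-92 cluster, which promotes cell growth, and *miR-26a* is an abundant miRNA of many differentiated tissues. The log2FC was 0.30 for *miR-92a* (95% interval -0.00 to 0.61) and 0.14 for *miR-26a* (95% interval -0.36 to 0.64), both of the opposite sign to that of *miR-191*, with adjusted p-values of 0.348 and 0.819 from edgeR. The ratio of *miR-191* to the geometric mean of *miR-26a* and *miR-92a* does not depend on the scaling of a library. It was 0.819 in CNLX1, 0.818 in CNLX3, 0.930 in CNLX5, 0.774 in CNLX7 and 0.813 in CNLX9, and in Montbéliarde it ran from 0.355 in CNLX19 to 0.734 in CNLX13. The lowest Holstein library thus lay above the highest Montbéliarde library, CNLX13.

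The mean log2 ratio was -0.27 ± 0.10 (SD, n = 5) for Holstein, against -0.89 ± 0.36 (SD, n = 6) for Montbéliarde. The difference was -0.62, or 0.649-fold (exact permutation test, two-sided, p = 0.00433, adjusted p = 0.0216 over 5 ratios). With medians in place of means the difference was -0.54 and did not pass (exact permutation test, p = 0.0519). The same ratio was formed for all 550 miRNAs tested, of which 15 (2.73%) did not overlap between the breeds. With *miR-26a* and *miR-92a* as the scaling of the whole table, the log2FC of *miR-191* was -0.59 (standard error 0.18) and its adjusted p 0.177 in edgeR, where 0.364% of the miRNAs passed. Library CNLX15 had a normalized read count of 1249505 for *miR-26a*, against at most 672328 in the others, and without it the difference of the log2 ratio was -0.65. Relative to the geometric mean of the other 19 candidates, *miR-191* differed by -0.31 on the log2 scale and the breeds overlapped (exact permutation test, p = 0.186, adjusted p = 0.233), so the outcome depended on the partners chosen.

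**Figure D4:**
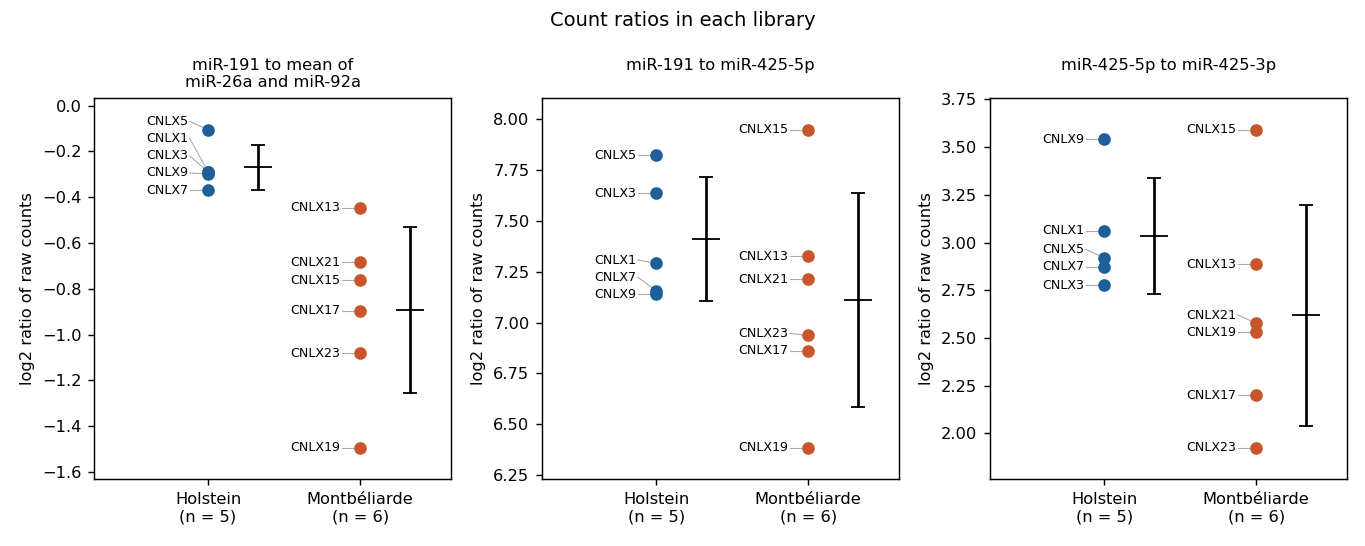
Log2 ratios of raw counts (vertical axes, which do not start at 0) in each library by breed, for *miR-191* to the geometric mean of *miR-26a* and *miR-92a*, for *miR-191* to *miR-425-5p* and for the *miR-425* arms. Points are libraries with their tags and bars the mean ± SD. The breeds are apart in the first panel, with means of -0.27 and -0.89, and overlap in the other 2.

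Scaling the whole table by *miR-191* alone shifted the comparison of the breeds. Relative to its geometric mean over the libraries, *miR-191* was at 1.06 to 1.34 in Holstein, and at 0.573 in CNLX19, 0.667 in CNLX23, 0.836 in CNLX17, 0.917 in CNLX21, 1.11 in CNLX13 and 1.34 in CNLX15. The values of CNLX19 would thus be multiplied by 1.74 and those of CNLX5 by 0.744. The median log2FC over all miRNAs rose from 0.03 with TMM to 0.52. With this scaling, 49 of 549 miRNAs passed the threshold (8.93%), all 49 of them higher in Montbéliarde, and neither *miR-16a* nor *miR-186* was among them. All values of a library are divided by the same *miR-191* count, so that these calls are not independent of each other. They numbered between 14 and 97 when 1 library was left out. The fewest were obtained without CNLX9 and the most without CNLX15. The number was 16 without CNLX1 or CNLX3, 18 without CNLX5, 21 without CNLX21, 30 without CNLX7, 31 without CNLX19, the library with the lowest *miR-191*, and 87 without CNLX13, 1 of these being higher in Holstein.

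The read counts of the miRNAs that the study measured by RT-qPCR moved accordingly. In its RT-qPCR, the study scaled to the mean of *miR-26a*, *miR-92a* and *miR-191*, and not to *miR-191* alone. It reports that *miR-25*, *miR-146b* and *miR-186* had the same pattern there as in sequencing, and does not name *miR-100* among them. The log2FC of *miR-186* was -0.77 with TMM (adjusted p = 0.0370) and -0.27 after scaling by *miR-191* (adjusted p = 0.488), both from edgeR. For *miR-25* it was 0.37 (adjusted p = 0.222) and 0.85 (adjusted p = 0.0233), for *miR-100* 0.99 (0.171) and 1.39 (0.00615), and for *miR-146b* 1.58 (0.209) and 1.82 (0.0124). No sign changed among these. With the geometric mean of *miR-26a*, *miR-92a* and *miR-191* as the scaling, the values were -0.71 for *miR-186*, 0.41 for *miR-25*, 0.97 for *miR-100* and 1.46 for *miR-146b*, near those with TMM, and no miRNA passed in edgeR (0%), while 67 had an unadjusted p of at most 0.05. The mean of the 3 controls ranged from 0.829 to 1.08 relative to its own geometric mean, apart from 1.44 in CNLX15, where *miR-191* alone was at 1.34.

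**Figure D5:**
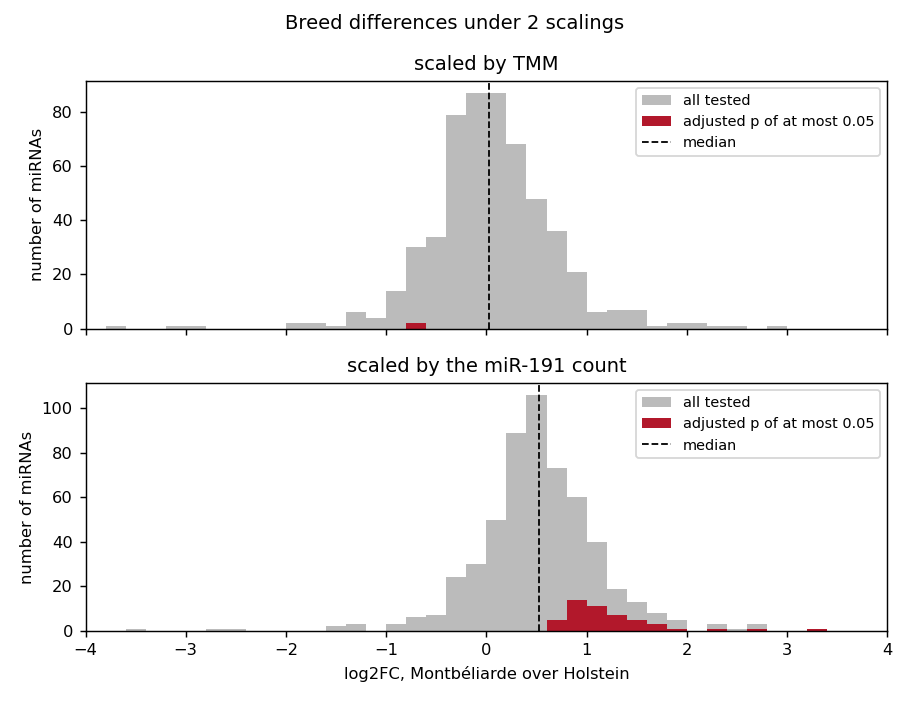
Number of miRNAs (vertical axes) by log2FC, Montbéliarde over Holstein (horizontal axis), from edgeR after TMM scaling (top) and after scaling by the *miR-191* count (bottom). Grey bars are all miRNAs tested, red bars those with an adjusted p of at most 0.05 and dashed lines the medians. The median moves from 0.03 to 0.52, and the red bars from 2 miRNAs higher in Holstein to 49 higher in Montbéliarde.

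A shared variation of *miR-191* and *miR-425-5p* across cows was not detected. Pearson's r between log2 *miR-191* and log2 *miR-425-5p* was -0.01 over the 11 libraries (permutation test, p = 0.972) and Spearman's rho was -0.15 (permutation test, p = 0.653). Without CNLX19 and CNLX23, the libraries farthest from the median of *miR-191*, r was -0.47, and within Holstein it was -0.91 against -0.22 within Montbéliarde. *MiR-191* was read 141 to 226 times as often as *miR-425-5p* in Holstein and 83.6 to 247 times in Montbéliarde. The mean log2 ratio was 7.41 ± 0.31 (SD, n = 5) for Holstein, against 7.11 ± 0.52 (SD, n = 6) for Montbéliarde, and the breeds differed by -0.30, less than the SD within Montbéliarde (two-sided exact permutation, p = 0.301).

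Over both breeds together, *miR-425-3p* tended to be high where *miR-191* was low, and only the rank relation passed. The log2FC of *miR-425-3p* and of *miR-191* had opposite signs, and the relation was not adjusted for breed. Spearman's rho was -0.88 (permutation test, p = 0.000680, adjusted p = 0.0109 over 16 relations) and Pearson's r was -0.74 (permutation test, p = 0.00840, adjusted p = 0.134). Without CNLX19 and CNLX23, r was -0.80. Within Montbéliarde r was -0.77, and within Holstein, where *miR-191* spanned a narrower range, -0.27. The difference between these values was not tested. In CPM (counts scaled to the total of the library) instead of normalized read counts, rho and r were both -0.68 and were not tested. The 2 levels of a library share its size factor.

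The *miR-425* arms were not in a fixed ratio either. The 5p arm was read 8.35 times as often as the 3p arm in CNLX1, 6.85 times in CNLX3, 7.57 in CNLX5, 7.33 in CNLX7 and 11.6 in CNLX9. In Montbéliarde the ratio was between 3.80 in CNLX23 and 12.1 in CNLX15. The 5p arm was the more abundant in every library, in 4 Montbéliarde libraries at a ratio below all of Holstein. The log2 ratio averaged 3.03 ± 0.30 (SD, n = 5) for Holstein, against 2.62 ± 0.58 (SD, n = 6) for Montbéliarde, and the difference of -0.42 did not pass (exact permutation test, two-sided, p = 0.177, adjusted p = 0.233). Without library CNLX15 it was -0.61 (exact permutation test, p = 0.0238). Across all libraries the log2 levels of the arms had an r of 0.16 (permutation test, p = 0.637).

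For *miR-191b*, no relation to *miR-191* was detected either, with an r of 0.11 (permutation test, p = 0.754) and a rho of 0.01. The ratio of *miR-191* to *miR-191b* ran from 1141 to 1777 among the Holstein cows, while those of Montbéliarde ran from 606 to 1366, with a difference of -0.49 on the log2 scale (exact permutation test, p = 0.0628, adjusted p = 0.157).

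The marker lists for other cell types were set beside these levels. All 5 leukocyte markers (*miR-142-5p*, *miR-142-3p*, *miR-150*, *miR-155* and *miR-223*) were read, with summed normalized read counts of 18031 to 26952 in Holstein and 17229 to 39422 in Montbéliarde. Most of this sum was *miR-142-5p*, with a mean of 21559, while *miR-155* came next with 1181. The lowest sums were those of CNLX23 and CNLX19, at 17229 and 17523, the libraries with the least *miR-191*, and the highest was that of CNLX15. The r between log2 *miR-191* and this sum was 0.93 within Montbéliarde, 0.05 within Holstein and 0.55 over all libraries (rho 0.50; permutation tests, p = 0.0814 and p = 0.120, both adjusted p-values above the threshold). Without CNLX19 and CNLX23 the r over both breeds was 0.17. These libraries were left out as the farthest in *miR-191*, which narrows its range. Of the Montbéliarde libraries left, CNLX15 was highest both in *miR-191* and in the leukocyte sum. CNLX17 was lowest in both, with 90672 and 20380. The r within Montbéliarde was not computed without them. For *miR-425-3p*, the r with the same sum was -0.54 (rho -0.43; permutation tests, p = 0.0806 and p = 0.192), and -0.16 without CNLX15 and CNLX17. The part of leukocyte RNA in the level of either miRNA was not tested. Over all libraries, r with *miR-191* was 0.36 for the epithelial sum, -0.04 for 5 stromal markers such as *miR-143* and *miR-145*, 0.31 for the arms of the endothelial *miR-126* and 0.01 for 3 erythroid markers (0.97 within Holstein, 0.03 within Montbéliarde), with adjusted p-values of at least 0.878 in permutation tests. None of the 5 lists had a marker that passed the breed comparison or a sum that separated the breeds. Of all miRNAs tested, only 0.364% passed and 2% had breeds that did not overlap. In edgeR the unadjusted p was 0.0068 for *miR-143*, 0.011 for *miR-141*, 0.019 for *miR-199a-3p* and 0.037 for *miR-200c*. An unadjusted p of at most 0.05 was found for 14.2% of all miRNAs tested. The epithelial sum was below every Holstein library in 5 of the 6 Montbéliarde libraries, CNLX13 being the exception. Its medians were 410584 in Holstein and 258090 in Montbéliarde. By mean, *miR-141* gave the largest part of this sum, at 243915, followed by *miR-200c* with 42590. The log2FC was -0.74 for *miR-141*, -0.61 for *miR-200c*, -0.33 for *miR-429*, -0.10 for *miR-200b*, -0.04 for *miR-200a* and 0.38 for *miR-205*. The epithelial markers thus did not all move alike. The stromal sum ran from 1511914 to 2303536 in Holstein and was above that range in 4 of the 6 Montbéliarde libraries, CNLX15, CNLX17, CNLX19 and CNLX21. Its medians were 1837267 in Holstein and 2724091 in Montbéliarde. Nearly all of this sum was *miR-143*, with a mean of 2339520, while *miR-199a-3p* came next with 7991. The log2FC was 0.58 for *miR-143*, 0.67 for *miR-199a-3p*, 0.54 for *miR-199a-5p*, 0.83 for *miR-214* and, of the opposite sign, -0.27 for *miR-145*. The part of these levels in the *miR-191* difference was not tested. The summed count of a library had an r of 0.20 with *miR-191* (permutation test, p = 0.562) and a rho of 0.27.

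Among the ranked miRNAs, those whose log2 normalized read counts followed *miR-191* most closely over the 11 libraries were *miR-374a* with a Pearson's r of 0.91, *miR-744* with 0.85, *miR-183* with 0.84, *miR-374b* with 0.78 and *miR-10a* with 0.76. They were picked as the highest of 213 values and are given as a description.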

How the data were processed

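Small RNA libraries had been prepared with the TruSeq Small RNA kit and sequenced as single-end reads. Per the methods, the authors trimmed adaptors, kept reads by size and quantified miRNAs with ncPRO-seq and miRDeep2 on a bovine assembly with miRBase. The authors deposited unnormalized counts of reads for each mature miRNA in each library. They also deposited a signal, the normalized read counts, in which each library is divided by its DESeq2 size factor (version 1.18.1 per the labels), with breed means. How reads matching several miRNAs were counted is not given in the sources used here. In the counts, *let-7b* equalled *miR-3596*, and *miR-26a* was 2.00 times *miR-26c* in every library. Such rows may hold the same reads, which was not tested. The deposited log2 fold changes (log2FC) and p-values of the authors' own comparison were not used.

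Breeds were compared on the counts with edgeR 4.0.16 in R 4.3.3 (TMM, robust glmQLFit, glmQLFTest), over the 550 miRNAs with at least 10 counts in sum, with Benjamini-Hochberg adjustment at 0.05. Intervals of 95% came from the standard error and the test's degrees of freedom. DESeq2 1.42.0 and limma 3.58.1 were alternatives. Single values were compared by exact permutation of the 11 libraries (462 ways, smallest p 0.00216), and relations between libraries by 100000 permutations, with 16 relations adjusted together. Fitting was tested on simulated data. The p-values measure the spread between cows.

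The members and lists were chosen with earlier results of these data known. Named were the members, *miR-191b*, the RT-qPCR controls and targets, the nearest in level, the least variable and the most alike. The ratios of *miR-191* to *miR-26a* and *miR-92a*, to the other candidates and to *miR-191b*, the test of spread, and scaling by *miR-191* without each library were added after the data were seen. The RefSeq table served only for gene names and the order of neighbouring genes, and no coordinates are given. Mature sequences and RT-qPCR values are not used here.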

Additional observations from a re-analysis of the deposited data

Results flagged for a closer look

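A sample far from the others of its breed was found for 2 of the 22 groups of values examined, and chance alone flags about 1 in 20. In Montbéliarde, library CNLX23 had a normalized read count of 66.7 for *miR-191b*, against 96.3 to 106 in the other 5. Library CNLX15 had 1249505 for *miR-26a*, used with *miR-191* as RT-qPCR control, against at most 589563 in the other Montbéliarde libraries. No value of *miR-191*, *miR-425-5p* or *miR-425-3p* stood apart in this way.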

How the results depend on the processing

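The sign of the log2FC of *miR-191* and *miR-425-3p* held under each alternative and with each library left out (-0.59 to -0.25 and 0.24 to 0.93), and none passed. That of *miR-425-5p* turned only after scaling by *miR-191*, to 0.35, and was otherwise between -0.31 and -0.02. No paired analysis was made, because the breeds are different cows and the sample records give no pairing of them.

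The number of miRNAs past the threshold was 2 in the main comparison and 0 with DESeq2 size factors, with upper-quartile scaling and with the mean of *miR-26a*, *miR-92a* and *miR-191* (82, 78 and 67 at an unadjusted p of at most 0.05 in edgeR). It was 1 with total reads only, 20 with the Wald test of DESeq2 and 49 after scaling by *miR-191*. Leaving out 1 library gave 0 to 6 (0 without CNLX1, CNLX3, CNLX5, CNLX7, CNLX15, CNLX19 or CNLX21, 1 without CNLX9, 4 without CNLX13, 5 without CNLX17 and 6 without CNLX23), and 14 to 97 after scaling by *miR-191*.

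The rank of *miR-191* by SD was 76 of 214 in CPM, 67 of 114 for means of at least 1000 and 33 of 54 for means of at least 10000. With the median absolute deviation, 0.27, it was 152. Without 1 library the rank was 78 (CNLX19) to 159 (CNLX15) and the SD 0.32 to 0.42. M for *miR-191* stayed between 0.40 and 0.53.

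The ratio of *miR-191* to *miR-26a* and *miR-92a* differed by -0.54 in medians (exact permutation test, p = 0.0519), and by -0.71 to -0.50 without 1 library. Without CNLX15, its exact permutation p stayed below the threshold, and 3 further differences came below it, -0.61 for the *miR-425* arms, -0.58 for *miR-191* to *miR-191b* and -0.45 for *miR-191* to the other candidates. With 1 library left out, these lay between -0.61 and -0.28, -0.58 and -0.34, and -0.45 and -0.20, and that of *miR-191* to *miR-425-5p* between -0.46 and -0.15. The causes were not tested.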

Other observations

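*MiR-425-5p* was followed across the 11 libraries most closely by *miR-423-3p*, another reference candidate, with a Pearson's r of 0.96 as the highest of 213 values. For *miR-425-3p* the highest r was 0.89, with *miR-139*. Both were picked after their values were seen and are given as a description.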
